A study of Mus musculus with 40 samples.

Results

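The immediate early genes of the EGR and AP-1 families were followed across *Ccnc* and *Cdk8* knockout mouse embryonic stem cells (mESCs) with and without an ATR inhibitor. The members were chosen by name, as 10 of the 55536 genes in the count tables: *Egr1*, *Egr2* and *Egr3*, *Fos*, *Fosb* and *Fosl1*, *Jun*, *Junb* and *Jund*, and *Ier2*. Their rows were read from both count tables, and the lanes of each library were summed.

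Immediate early genes are transcribed within minutes of a growth factor or stress signal, without new protein synthesis, when ERK and other kinases act on transcription factors such as SRF, the ETS-domain proteins ELK1, ELK3 and ELK4, and CREB that are already bound at their promoters. EGR proteins are zinc finger factors that bind GC-rich DNA, and FOS and JUN proteins pair to form AP-1. Cyclin C and CDK8 belong to the kinase module of Mediator, the complex that links such factors to RNA polymerase II, and CDK19 is the paralog of CDK8. mESCs in serum and LIF have ongoing ERK signalling, driven in large part by their own FGF4.

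The cells were WT mESCs (2 biological replicates), *Ccnc* KO mESCs (D1, G2 and H5, 3 clones) and *Cdk8* KO mESCs (B9, C8 and H4, also 3). Each knockout clone was a separate line made by CRISPR-Cas9. All were grown on gelatin in serum with LIF and treated for 4 h, either with AZD6738 at 900 nM, which inhibits the ATR kinase (ATRi), or with DMSO. Poly(A) RNA was sequenced in 2 multiplexes of 10 libraries, one with the *Ccnc* KO and one with the *Cdk8* KO libraries, and the same 4 WT libraries were sequenced in both.

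Library totals lay between 30899823 and 67274049 counts. WT replicate 2 under ATRi was left out of the tests, so that 9 libraries per multiplex were tested, with 1 WT library under ATRi. *Ccnc* was 4.24 to 7.40 CPM (counts scaled by library size) in the *Ccnc* KO libraries and 43.6 to 45.1 CPM in WT. *Cdk8* RNA was 52.3 to 64.5 CPM in the *Cdk8* KO libraries and 71.2 to 78.6 CPM in WT, a log2 fold change of -0.35 (SE 0.06, adjusted p = 0.0112 by edgeR). *Cdk19* was between 11.5 and 14.6 CPM in every tested library. The stem cell markers were well above 0 in all libraries. Among the fibroblast markers, *Lum*, *Postn*, *Col3a1* and *Dcn* were at 0 in some libraries. *Col1a1*, *Col1a2*, *Thy1* and *Pdgfrb* were at 0 in none. *Col1a1* was 1.65 to 6.52 CPM in the *Ccnc* multiplex and 1.48 to 16.8 CPM in the *Cdk8* multiplex.

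The members spanned a wide range of levels. Per kb of exon sequence, the scale on which genes are compared here, the median over 20 libraries was 214 CPM for *Ier2*, a small nuclear protein gene, and 39.8 CPM for *Junb*. *Egr1* had a median of 3.28 CPM per kb and *Jun* of 1.63, followed by *Fosl1* (which encodes FRA1) with 0.937, *Fos* with 0.766 and *Fosb* with 0.116. The ranges over libraries did not overlap between *Ier2* and *Junb*, between *Junb* and *Egr1*, or between *Fos* and *Fosb*. They overlapped between *Egr1* and *Jun*, *Jun* and *Fosl1*, and *Fosl1* and *Fos*.

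The order of *Egr1* and *Jun* differed between clones of each knockout. In the tested WT libraries *Egr1* lay between 6.04 and 7.33 CPM per kb and *Jun* between 1.32 and 1.64. In *Cdk8* KO clone H4 the order was turned, with *Jun* at 6.45 (DMSO) and 6.82 (ATRi) and *Egr1* at 2.90 and 3.68 CPM per kb. In clones B9, D1 and G2 *Egr1* was above *Jun* in both libraries, while in H5 *Jun* was 2.16 and 2.48 and *Egr1* 2.06 and 2.44, and in C8 *Jun* was 2.41 and 2.56 and *Egr1* 2.19 and 2.75.

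*Jund*, *Egr3* and *Egr2* had few or no counts. *Egr2* had 0 counts in 20 of 20 libraries, which allows a level of up to 0.0453 to 0.0955 CPM at 3 counts per library. *Egr3* had 0 to 21 counts per library, a median of 0.0302 CPM per kb, and *Jund* 0 to 13 counts, a median of 0.0939 CPM per kb. These limits cover counting error only. *Egr2* passed the filter on low counts in neither multiplex and *Egr3* only in the *Cdk8* multiplex, which left 8 and 9 members to test. *Egr3* there had a log2 fold change of 1.01 (SE 0.58, KO against WT) and *Jund* of -0.47 (SE 0.53) and -0.25 (SE 0.59) in the *Ccnc* and *Cdk8* KO, none of them called. Whether *Jund* reads were lost at alignment or counting cannot be told from the counts, so its values are not read as the level of its RNA.

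Of the members, 4 share exon bases with a gene on the opposite strand, and the counting was set to keep the strands apart. *Ccdc85b*, with 676 to 1627 counts per library, covers 1163 of the 2033 exon bases of *Fosl1*, which itself had 53 to 165 counts. *Prdx2* (8026 to 23558 counts) covers 173 of 2301 exon bases of *Junb*, *Junos* (1 to 15 counts) 232 of 3189 of *Jun*, and Gm11175 (0 to 2 counts) 877 of 1668 of *Jund*. Reads assigned to the wrong strand were not measured, and *Fosl1* is the member with the largest share covered by a gene with more counts than its own.

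**Figure D1:**
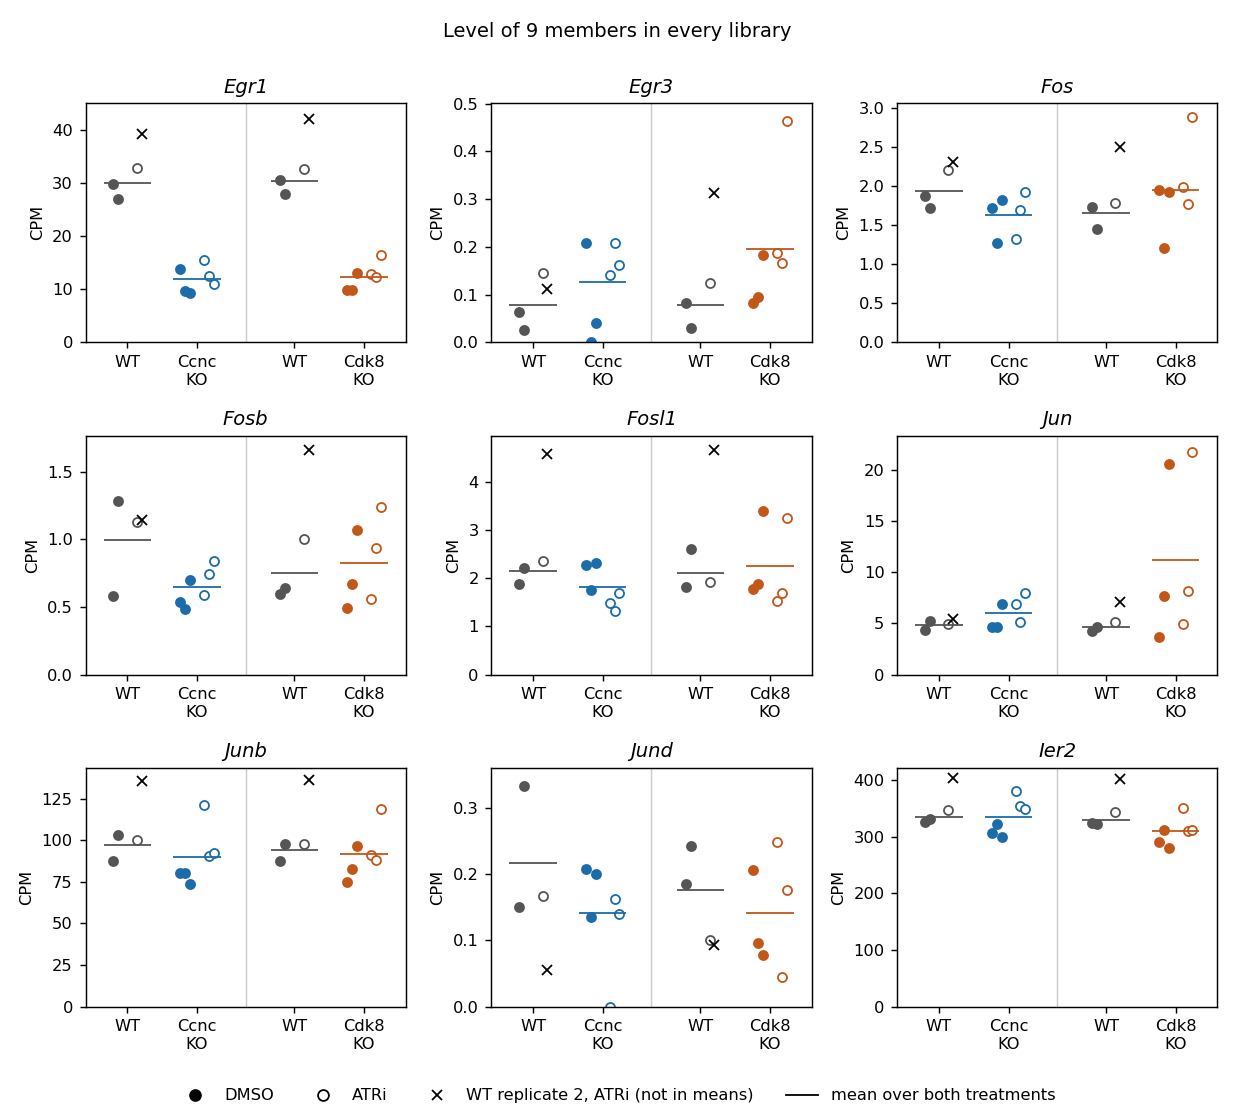
CPM (vertical axis, from 0) of 9 members in every library, by genotype within the *Ccnc* multiplex (left of each panel) and the *Cdk8* multiplex (right), with filled points for DMSO, open points for ATRi, a cross for WT replicate 2 under ATRi and a line at the mean over both treatments without that library. *Egr1* has every knockout point below every WT point, *Jun* has its highest points (20.6 and 21.8 CPM) in the *Cdk8* KO, and *Egr2*, at 0 everywhere, is not drawn.

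The same libraries give the precision of these levels, since each WT library was sequenced once in each multiplex. For *Egr1*, *Junb* and *Ier2* the ratio of the repeat to the first value was between 0.946 and 1.07 over 12 pairs. For *Fos*, *Fosb*, *Fosl1* and *Jun*, with far fewer counts, it was between 0.497 and 1.45 over 16 pairs. The repeats of the low genes thus differed by more than those of the high genes.

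Promoter sequence was held for 6 of the 10 members in the RefSeq table (build GRCm38.p6), with no entry for *Egr1*, *Egr3*, *Fosl1* and *Ier2*. The sequences below are the 250 bases before the start site, 5′ to 3′, of the 5 members with a start within 30 bases of the annotated gene start. For *Egr2*, the member with 0 counts, an internal start 2395 bases from the gene start is added, because its window holds matches and the one near the gene start holds none. Since the internal window was chosen for its matches, the shares of all windows given below do not apply to it. The sequences are shown so that the letters of members with no, few and many counts can be set side by side. Capitals mark matches on either strand to TGACG (the core of the CREB and ATF site, 17.8% of all 32851 promoter windows of this length), TGACNTCA (7.49%), the AP-1 site TGANTCA (6.75%), the EGR site GCGNGGGCG (4.7%), TATAAA (12.4%) and the CArG box that SRF binds (1.47%). A full CREB site matches both TGACG and TGACNTCA and was counted under each.
Fos, chr12:85473640-85473889, plus strand: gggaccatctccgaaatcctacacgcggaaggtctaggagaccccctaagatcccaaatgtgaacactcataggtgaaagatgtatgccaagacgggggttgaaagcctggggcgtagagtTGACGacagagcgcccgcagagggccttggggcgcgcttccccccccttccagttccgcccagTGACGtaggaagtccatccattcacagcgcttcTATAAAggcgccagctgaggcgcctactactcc
Fosb, chr7:19310046-19310295, minus strand: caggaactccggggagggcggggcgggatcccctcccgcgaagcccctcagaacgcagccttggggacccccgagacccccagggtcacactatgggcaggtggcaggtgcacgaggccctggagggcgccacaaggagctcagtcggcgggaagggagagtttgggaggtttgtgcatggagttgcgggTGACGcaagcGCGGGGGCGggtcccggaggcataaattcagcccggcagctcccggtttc
Junb, chr8:84978749-84978998, minus strand: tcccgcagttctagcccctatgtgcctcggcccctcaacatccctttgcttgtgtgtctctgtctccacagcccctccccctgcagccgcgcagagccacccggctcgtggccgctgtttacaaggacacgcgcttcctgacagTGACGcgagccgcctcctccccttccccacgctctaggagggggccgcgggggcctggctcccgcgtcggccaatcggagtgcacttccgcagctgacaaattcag
Jun, chr4:95052223-95052472, minus strand: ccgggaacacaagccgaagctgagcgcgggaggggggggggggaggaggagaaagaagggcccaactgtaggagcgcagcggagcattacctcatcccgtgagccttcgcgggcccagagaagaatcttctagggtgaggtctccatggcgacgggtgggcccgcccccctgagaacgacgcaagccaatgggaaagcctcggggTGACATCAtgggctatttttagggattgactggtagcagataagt
Egr2, chr10:67535249-67535498, plus strand: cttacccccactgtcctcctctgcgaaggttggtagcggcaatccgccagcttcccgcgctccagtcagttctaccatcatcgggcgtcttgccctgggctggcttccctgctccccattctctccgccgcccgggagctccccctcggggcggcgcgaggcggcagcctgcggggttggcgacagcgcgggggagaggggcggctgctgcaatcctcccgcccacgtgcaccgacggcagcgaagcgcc
Egr2 (internal start), chr10:67537620-67537869, plus strand: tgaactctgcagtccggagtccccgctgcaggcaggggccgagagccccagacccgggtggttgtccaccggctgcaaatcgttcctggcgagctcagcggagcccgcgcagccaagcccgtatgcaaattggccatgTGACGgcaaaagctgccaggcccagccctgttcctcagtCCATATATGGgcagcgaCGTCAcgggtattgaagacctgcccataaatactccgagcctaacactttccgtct

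The matches differed from member to member. *Fos* held TGACG from -66 to -62 and from -129 to -125, counted from the start site, and TATAAA from -33 to -28. *Fosb* and *Junb* held 1 TGACG each, and *Fosb* also 1 EGR site. *Jun* held no TGACG and 1 TGACNTCA, spelled TGACATCA, from -45 to -38. *Egr2* held no match in the window nearest its gene start, and 2 matches to TGACG and 1 CArG box in the internal window shown. The only *Jund* window, 1210 bases from the annotated gene start, held no match and is not shown. A match is a description of the letters only.

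*Egr1* was lower in both knockouts, by more than 2-fold, and the knockout and WT libraries did not overlap in either multiplex. *Egr1* encodes the zinc finger factor that gave the EGR family its name, and lies at 34859823 to 34864984 on chromosome 18 (GRCm38, plus strand). In the *Ccnc* multiplex it was 29.8 and 27.1 CPM in the WT DMSO libraries and 32.9 CPM in the WT ATRi library. In the *Ccnc* KO clones D1, G2 and H5 it was 13.9, 9.64 and 9.24 CPM with DMSO and 15.5, 12.6 and 10.9 CPM with ATRi. All 6 knockout libraries lay below all 3 WT libraries, and D1 was the highest clone with each treatment.

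In the *Cdk8* multiplex the pattern of *Egr1* was much the same. It was 30.6 and 27.9 CPM in the WT DMSO libraries and 32.7 CPM with ATRi, against 9.90, 9.80 and 13.01 CPM (DMSO) and 12.9, 12.3 and 16.5 CPM (ATRi) in clones B9, C8 and H4. The knockout and WT libraries again did not overlap, and H4 was the highest clone with each treatment. Over both treatments the mean was 11.97 ± 2.47 CPM in *Ccnc* KO and 12.4 ± 2.47 CPM in *Cdk8* KO (SD, n = 6 libraries of 3 clones each). In WT it was 29.9 ± 2.90 and 30.4 ± 2.39 CPM (SD, n = 3). The 3 WT libraries are the same in each multiplex and come from 2 replicates, so the comparisons share their WT values.

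With treatment in the model, *Egr1* was 2.58-fold lower in *Ccnc* KO (log2 fold change -1.37, SE 0.12) and 2.55-fold lower in *Cdk8* KO (-1.35, SE 0.12). The p-values of edgeR (quasi-likelihood, Benjamini-Hochberg adjusted over all genes tested) were 7.57e-06 and 0.00122. With the clone as a block they were 4.51e-06 and 0.000836. In the *Ccnc* KO the call held under each of the 11 alternatives run. In the *Cdk8* KO it held under 9 of 11 and was missed with the DMSO libraries alone (-1.43, adjusted p = 0.0541 by edgeR). That fit called 5 of 16904 genes. The call was also missed without WT replicate 1 (-1.37), which leaves a single WT library. The study also examined EGR1 in these samples, so its direction here is not independent evidence.

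*Egr1* was the only member called in either knockout. In the *Ccnc* KO 1 of 8 members tested was called, beside 12.3% of all 18577 genes tested, and in the *Cdk8* KO 1 of 9, beside 4.31% of 18721 genes. For a call with a fold below 0.5, which *Egr1* met in both, the share over all genes was 0.318% and 0.144%. For genes with every knockout library below every WT library it was 6.92% and 6.07%, and *Egr1* was again the only such member. The median log2 fold change of the members tested was -0.24 in *Ccnc* KO and 0.09 in *Cdk8* KO, beside 0.00 and 0.01 over all genes tested.

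Markers of other cell types differed between the same groups. Of the 10 markers of primitive endoderm, the early lineage that forms beside the pluripotent cells, 8 rose in the *Ccnc* KO and 10 in the *Cdk8* KO (edgeR, same test). With the clone as a block 8 and 7 were called. Their summed level was 222 to 362 CPM in *Ccnc* KO against 130 to 152 CPM in WT, and 384 to 626 CPM in *Cdk8* KO against 130 to 148 CPM. Of 5 neuroectoderm markers, 2 fell in the *Ccnc* KO and 1 in the *Cdk8* KO, with 0 higher, and 2 and 0 were called with the block. Of 5 mesoderm markers, 1 rose in the *Ccnc* KO and 0 were called in the *Cdk8* KO. Among all genes 12.3% and 4.31% were called, and 10.1% and 1.27% with the block. Of the 10 stem cell markers, 4 fell in the *Ccnc* KO and 2 in the *Cdk8* KO, with 0 higher, and 4 and 0 were called with the block. Summed, they were 4482 to 5049 CPM against 5089 to 5438 CPM, and 3796 to 4692 CPM against 4958 to 5336 CPM. The part of these shifts in the level of *Egr1* was not tested, and in bulk RNA fewer cells with a transcript and less transcript per cell cannot be told apart.

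**Figure D2:**
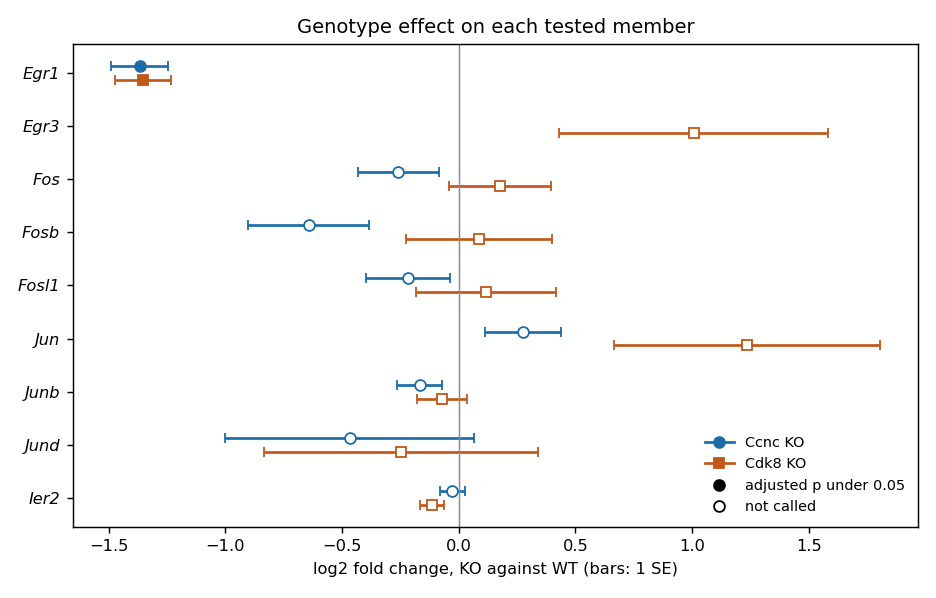
Log2 fold change of each tested member, KO against WT (horizontal axis, bars of 1 SE), for *Ccnc* KO (circles) and *Cdk8* KO (squares), with filled symbols for an adjusted p under 0.05. *Egr1* is filled at -1.37 and -1.35 in the 2 knockouts, the other symbols are open, and *Jun* in *Cdk8* KO has a wide bar around 1.23.

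No FOS gene was called in either knockout. FOS proteins are the partners that need JUN to bind DNA, and FOSB and FRA1 are relatives of FOS. *Fos* was 1.27 to 1.93 CPM in the *Ccnc* KO libraries against 1.72 to 2.21 CPM in WT, and 1.21 to 2.89 CPM in the *Cdk8* KO libraries against 1.46 to 1.78 CPM. *Fosl1* was 1.32 to 2.32 CPM against 1.87 to 2.36 CPM, and 1.53 to 3.39 CPM against 1.81 to 2.61 CPM. The groups of both genes overlapped in both multiplexes.

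*Fosb* was the lowest FOS member, with 18 to 62 counts per library. It was 0.486 to 0.838 CPM in *Ccnc* KO and 0.581 to 1.28 CPM in WT, a log2 fold change of -0.64 (SE 0.26) with an adjusted p of 0.124 by edgeR. In *Cdk8* KO it was 0.494 to 1.23 CPM against 0.598 to 1.00 CPM, a log2 fold change of 0.09 (SE 0.31). The groups overlapped in both, and the same WT libraries gave values of 1.28 and 0.638 CPM for WT replicate 2 under DMSO in the separate multiplexes.

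*Jun*, the main DNA-binding partner of AP-1, differed widely between the *Cdk8* KO clones. In the tested WT libraries it was 4.21 to 5.10 CPM in the *Cdk8* multiplex. In the *Cdk8* KO it was 3.71 and 4.98 CPM in clone B9, 7.70 and 8.16 CPM in C8, and 20.6 and 21.8 CPM in H4 (DMSO and ATRi). B9 lay within or below the WT values, C8 above them and H4 far above, and the clones kept this order with each treatment.

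The fitted log2 fold change of *Jun* in *Cdk8* KO was 1.23 (SE 0.57), with an adjusted p of 0.247 by edgeR. Without H4 it was 0.36 (SE 0.24, adjusted p = 0.432), and without B9 it was 1.62 (SE 0.41) and called, with an adjusted p of 0.0461 by edgeR. The fit without B9 called 1512 of 18327 genes. In the *Ccnc* KO *Jun* was 4.62 to 7.92 CPM, with H5 the highest clone under each treatment, against 4.39 to 5.24 CPM in WT. That log2 fold change was 0.28 (SE 0.16, adjusted p = 0.300).

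Clone H4 also stood apart in other cell type markers. The 8 fibroblast markers summed to 22.6 (DMSO) and 25.7 CPM (ATRi) in H4, against 8.92 to 10.9 CPM in B9 and C8 and 5.78 to 7.24 CPM in WT. *Col1a1* alone reached 16.8 CPM in H4, while *Pdgfrb* was at most 2.89 CPM in any library of the multiplex. *Lum* was at 0 in 8 of the 10 libraries and *Postn* in 6. The 5 neuroectoderm markers summed to 98.3 and 112 CPM in H4 against 35.1 to 52.8 CPM in B9 and C8, but most of this was *Nes*, at 78.9 and 90.2 CPM in H4. The other 4 (*Sox1*, *Pax6*, *Hes5* and *Zic1*) summed to 19.4 and 21.8 CPM in H4, below the 26.1 to 27.6 CPM of the tested WT libraries. The stem cell markers summed to 3796 (DMSO) and 3949 CPM (ATRi) in H4, against 4363 to 4692 CPM in B9 and C8. The primitive endoderm markers summed to 384 and 399 CPM in H4, against 442 to 626 CPM in B9 and C8. H4 was also the highest *Cdk8* KO clone for *Egr1*, *Fosb*, *Fosl1* and *Junb* with each treatment. The part of these markers in the level of *Jun* was not tested.

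*Junb* and *Ier2*, the members with the most counts, were not called in either knockout. *Junb* encodes a JUN protein that can restrain JUN at AP-1 sites. It was 73.5 to 121 CPM in *Ccnc* KO against 87.8 to 103 CPM in WT (log2 fold change -0.17, SE 0.09, adjusted p = 0.279 by edgeR), and 74.7 to 119 CPM in *Cdk8* KO against 87.5 to 97.8 CPM (-0.07, SE 0.11). *Ier2* was 301 to 381 CPM against 326 to 347 CPM (-0.03, SE 0.05), and 281 to 351 CPM against 322 to 344 CPM (-0.11, SE 0.05, adjusted p = 0.248). The knockout ranges spanned or overlapped the WT ranges, and *Junb* was called only with *Ccnc* KO clone D1 left out (-0.23, adjusted p = 0.0329 by edgeR). In that fit 2640 of 18418 genes were called.

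The lists of related genes are given beside the 12.3% (*Ccnc* KO) and 4.31% (*Cdk8* KO) of all genes called. Of 18 other immediate early transcription factors 16 were tested, and of these 2 rose and 3 fell in the *Ccnc* KO, and 1 rose and 2 fell in the *Cdk8* KO. Of 24 other immediate early genes, 3 rose and 4 fell in the *Ccnc* KO. In the *Cdk8* KO 0 were called by edgeR, with 7 at an unadjusted p under 0.05, and 3 by DESeq2, beside 1735 of 29765 genes. Of 20 upstream SRF and ERK pathway genes, 3 and 1 fell, and of 11 AP-1 partners and EGR co-repressors, 1 and 2 fell, with none higher. Of 8 heat shock genes, markers of general stress, 1 fell in each. With the clone as a block these counts were the same in the *Ccnc* KO, beside 10.1% of all genes, while in the *Cdk8* KO, beside 1.27%, 1 gene of the AP-1 partners and EGR co-repressors was called and 0 of the other 4 lists. In those 4 lists 7, 6, 5 and 1 genes had an unadjusted p under 0.05 in that blocked fit (other immediate early factors, other immediate early genes, upstream genes and heat shock genes). The list medians lay between -0.10 and 0.13 on the log2 scale.

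The same direction and a call in both knockouts was seen for 4 of these genes. Both comparisons used the same WT libraries, so they are not independent. The share of all genes called this way was not counted. *Nab2*, a co-repressor that binds EGR proteins and is itself an EGR target, was 13.3 to 15.6 CPM in *Ccnc* KO against 19.2 to 21.3 CPM in WT, and 11.3 to 16.98 CPM in *Cdk8* KO against 18.1 to 22.6 CPM. Its groups did not overlap in either multiplex, and the log2 fold changes were -0.50 (SE 0.08, adjusted p = 0.000704 by edgeR) and -0.61 (SE 0.14, adjusted p = 0.0403). *Rps6ka3*, which encodes the ERK-activated kinase RSK2, was 28.6 to 36.1 CPM against 39.3 to 44.5 CPM and 32.4 to 37.1 CPM against 39.9 to 46.6 CPM, also with no overlap, and had log2 fold changes of -0.36 (SE 0.08, adjusted p = 0.00949) and -0.29 (SE 0.06, adjusted p = 0.0220). *Klf2*, a pluripotency factor that is also an immediate early gene in other cells, had log2 fold changes of -0.28 (SE 0.07, adjusted p = 0.0194) and -0.50 (SE 0.12, adjusted p = 0.0468). Its groups overlapped in both multiplexes, at 184 to 254 CPM against 219 to 314 CPM and 132 to 222 CPM against 217 to 298 CPM.

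*Atf3*, a stress-induced factor that can pair with JUN, was the one that rose. It was 2.89 to 3.24 CPM in *Ccnc* KO against 1.23 to 2.05 CPM in WT, and 3.13 to 5.62 CPM in *Cdk8* KO against 0.904 to 2.16 CPM, with no overlap. The log2 fold changes were 0.95 (SE 0.15, adjusted p = 0.00105 by edgeR) and 1.55 (SE 0.30, adjusted p = 0.0216). In the *Cdk8* KO all 4 calls were lost with the clone as a block, with adjusted p-values of 0.101 for *Nab2*, 0.126 for *Rps6ka3*, 0.0522 for *Klf2* and 0.117 for *Atf3*. In the *Ccnc* KO they held with the block.

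**Figure D3:**
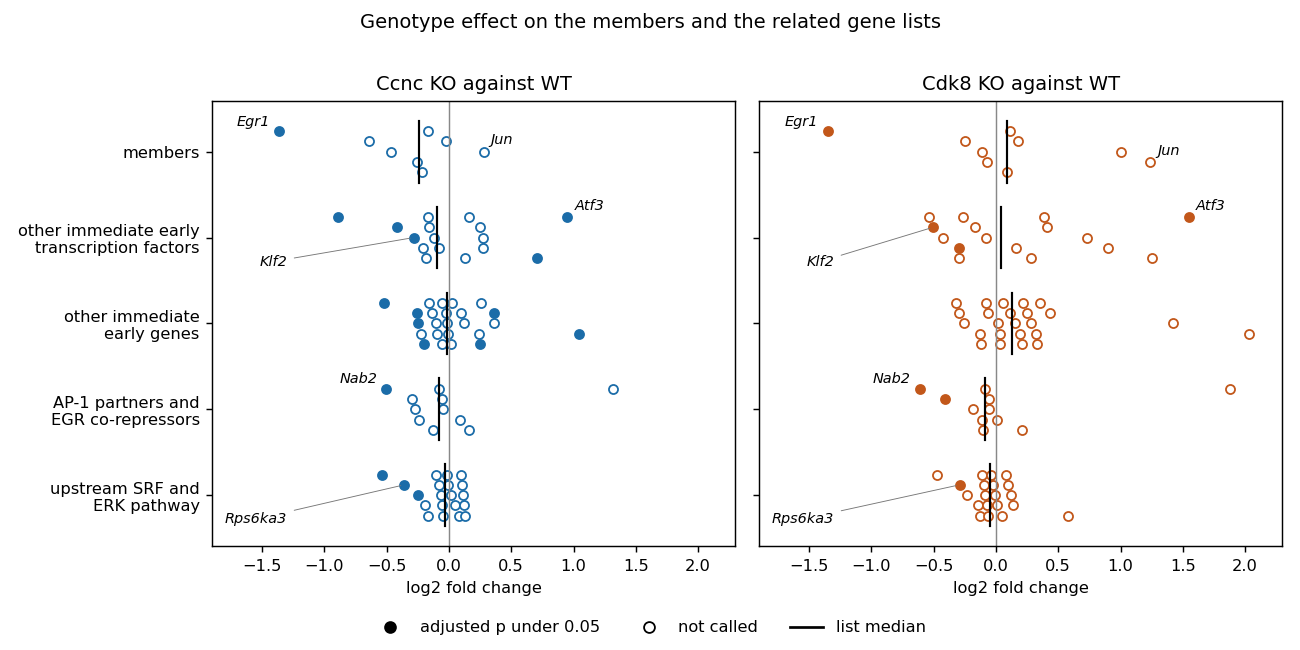
Log2 fold change, KO against WT (horizontal axis), of the members and of 4 lists of related genes, 1 point per tested gene, for *Ccnc* KO (left) and *Cdk8* KO (right), with filled points for an adjusted p under 0.05 and a black line at each list median. *Egr1* stands alone on the left at -1.37 and -1.35, while the list medians lie close to 0.

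The genes most like *Egr1* were found from log2 CPM over the 9 tested libraries of each multiplex, as the highest values of the lower of the 2 Pearson correlations among 13349 genes. They were *Atp11b*, which encodes a phospholipid flippase (0.96 in both), the noncoding RNA *Lncenc1* (0.95 and 0.96), *Hs3st3b1*, a heparan sulfate sulfotransferase (0.95 in both), *Grhl3*, an epithelial transcription factor (0.96 and 0.95), and *Tacc1* (0.94 and 0.96). Their log2 fold changes, KO against WT, were between -0.30 and -1.22, all lower in the knockouts. The WT libraries are common to both correlations, and much of each one is the difference between genotypes. No other member was near the top of this list. Those with a mean of at least 1 CPM had correlations with *Egr1* of 0.49 and 0.41 (*Junb*), 0.21 and 0.51 (*Ier2*), 0.46 and -0.01 (*Fos*), 0.32 and 0.12 (*Fosl1*) and -0.46 and -0.27 (*Jun*).

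After 4 h of ATR inhibition no member was called in the fit of the 9 libraries without the clone as a block. In the *Ccnc* multiplex 0 of 8 members tested were called by edgeR, beside 1.11% of all genes. Unadjusted, 2 had a p under 0.05, and DESeq2 called *Ier2*, beside 640 of 29492 genes. In the *Cdk8* multiplex 0 of 9 were called, beside 0.0855%, with 3 at an unadjusted p under 0.05 and 0 called by DESeq2. The member medians were 0.20 and 0.18 on the log2 scale, beside -0.01 and -0.01 over all genes tested.

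Each clone was sampled with and without ATRi, and with the clone as a block *Junb* and *Egr1* were called. *Junb* went from 80.6, 80.6 and 73.5 CPM (D1, G2, H5) with DMSO to 121, 90.3 and 92.1 CPM with ATRi, and in WT replicate 1 from 87.8 to 99.9 CPM. Its log2 fold change in the *Ccnc* multiplex was 0.31 (SE 0.07), with an adjusted p of 0.0372 by edgeR, beside 2.43% of all genes called with the block and an adjusted p of 0.147 without it. In clones B9, C8 and H4 it went from 74.7, 83.0 and 96.5 CPM to 91.1, 88.3 and 119 CPM, and the blocked log2 fold change there was 0.21 (SE 0.04, adjusted p = 0.00399), beside 11.3% of all genes. *Junb* was higher with ATRi in all 6 knockout clones and in both sequencings of WT replicate 1. The treatments did not overlap among the *Ccnc* KO clones and overlapped among the *Cdk8* KO clones. The share of all genes without such overlap was not counted, so this is a description only.

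*Egr1* was also higher with ATRi in every clone, by 0.16 to 0.38 on the log2 scale. With the clone as a block the *Cdk8* multiplex gave 0.27 (SE 0.06, adjusted p = 0.0108 by edgeR) and the *Ccnc* multiplex 0.22 (SE 0.07, adjusted p = 0.132). Without the block the adjusted p-values were 0.389 and 0.352. The change was small beside the genotype difference, and every knockout library with ATRi stayed below the WT DMSO libraries.

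The knockout clones were also tested alone, without any WT library. In the *Ccnc* KO clones 0 of 7 members tested were called by edgeR, beside 0.0894% of all genes, with 3 at an unadjusted p under 0.05. DESeq2 called *Junb*, beside 196 of 28488 genes. With the clone as a block 0 of 7 were called, beside 0.65%, and *Junb* had 0.36 (SE 0.09, adjusted p = 0.0714). In the *Cdk8* KO clones 0 of 7 were called, beside 0.0% of all genes, with 0 at an unadjusted p under 0.05 and 0 by DESeq2. With the block, beside 6.95% of all genes, *Egr1* (0.35, SE 0.07, adjusted p = 0.0102) and *Junb* (0.22, SE 0.05, adjusted p = 0.0144) were called.

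The other members differed in direction. *Fosb* and *Jun* were higher with ATRi in 6 of 6 knockout clones and *Fos* and *Ier2* in 5 of 6, while *Fosl1* was lower in 6 of 6. Of 16581 genes tested in both sets of clones, 7.42% were higher in all 6 clones and 9.82% lower or equal. *Fosl1* went from 2.28, 1.76 and 2.32 CPM to 1.49, 1.32 and 1.70 CPM in D1, G2 and H5, with no overlap between treatments. In B9, C8 and H4 it went from 1.77, 1.88 and 3.39 CPM to 1.53, 1.69 and 3.26 CPM, and the treatments overlapped. The share of all genes without overlap between treatments was not counted. The log2 fold change of *Fosl1* within the clones was -0.50 (SE 0.20, adjusted p = 0.347 by edgeR) and -0.12 (SE 0.38). In WT replicate 1 *Fosl1* went from 1.87 to 2.36 CPM and from 1.81 to 1.93 CPM.

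**Figure D4:**
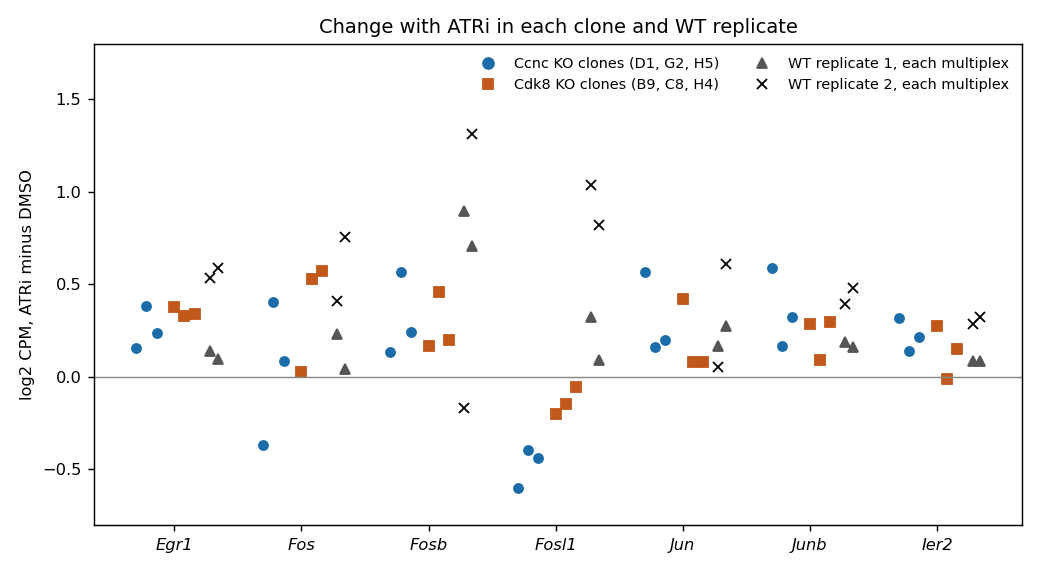
Difference of log2 CPM between ATRi and DMSO (vertical axis) for 7 members in each *Ccnc* KO clone (circles, D1, G2 and H5 from left to right), each *Cdk8* KO clone (squares, B9, C8 and H4) and each sequencing of WT replicate 1 (triangles) and WT replicate 2 (crosses). *Egr1*, *Fosb*, *Jun* and *Junb* lie above 0 in all clones, and *Fosl1* lies below 0 in all clones and above 0 in the WT replicates.

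Whether ATRi acted differently in knockout and WT cells was tested as an interaction. In the *Ccnc* multiplex 0 of 8 members were called, beside 0.0% of all genes, with 1 at an unadjusted p under 0.05 and 0 called by DESeq2. That member was *Fosl1*, with an interaction of -0.72 (SE 0.33, adjusted p = 1.00 by edgeR). In the *Cdk8* multiplex 0 of 9 were called, beside 0.0%, with 0 at an unadjusted p under 0.05 and 0 by DESeq2. For *Egr1* the interaction was 0.03 (SE 0.27) and 0.19 (SE 0.27), so a difference in its response as large as its genotype effect was outside these errors, while smaller ones were not resolved with 1 WT library under ATRi.

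The knockouts were compared with each other through the WT libraries that link the multiplexes. Both sequencings of a WT library entered this fit as separate libraries. They are repeat runs and not independent, which the standard errors of this fit do not allow for. Of 8 members tested 0 were called, beside 0.00545% of 18349 genes, with 0 at an unadjusted p under 0.05 and 0 by DESeq2. *Egr1* differed by 0.02 (*Cdk8* KO minus *Ccnc* KO, SE 0.19, adjusted p = 0.999 by edgeR). *Jun* differed by 0.95 (SE 0.59, adjusted p = 0.998), with clone H4 above all *Ccnc* KO clones and B9 and C8 among or near them. The 6 remaining members differed by -0.10 to 0.75.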

How the data were processed

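RNA from 20 mESC libraries (40 lane samples) was compared. The authors trimmed the reads with Trimmomatic 0.38, aligned them with HISAT2 2.1.0 to GRCm38.p6 and counted them per gene and strand with featureCounts 2.0.1, ignoring reads marked as duplicates. Their analysis left out WT replicate 2 under ATRi, as done here. They deposited raw read counts per lane, without normalization. Log2 values made with the rlog transformation of DESeq2 were also deposited and were not used here.

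Lanes were summed per library. Groups came from the sample labels. Genes passing filterByExpr by genotype and treatment were fitted within each multiplex in R 4.3.3 with edgeR 4.0.16 (TMM, quasi-likelihood F test, p-values adjusted by Benjamini-Hochberg over all genes tested), and called at an adjusted p under 0.05. Genotype was fitted beside treatment, and their interaction in a further model. The knockouts were compared in 1 fit of both multiplexes. Standard errors were taken from the test statistic. CPM used TMM sizes, with a prior count of 2 on the log2 scale. Exon lengths and positions came from GENCODE M21 (GRCm38). The tests were checked on simulated data.

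The 10 members and the gene lists were chosen with earlier results of these data known, the lists from general knowledge. All members are named, and of the related lists the genes called in both knockouts in the same direction, besides *Ccnc*, *Cdk8*, *Cdk19* and the 5 genes most like *Egr1*. Other genes were named after their values were seen. The labels do not say how the WT replicates were separated, so p-values measure the spread between these samples, and the 6 libraries of a knockout come from 3 clones. The libraries of a clone come from 1 cell line, which pairs them: their deviations correlated at 0.22 (D1), 0.02 (G2) and 0.24 (H5) across 16776 genes, and at 0.64 (B9), 0.24 (C8) and 0.71 (H4) across 17162. Alternatives were DESeq2 1.42.0, RLE size factors, keeping genes with 1 or more counts in some library, WT replicate 2 under ATRi included, the clone as a block (with limma 3.58.1 voom for genotype), DMSO libraries alone, and each clone or WT replicate left out.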

Additional observations from a re-analysis of the deposited data

Results flagged for a closer look

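WT replicate 2 under ATRi, the library left out of the tests, had the highest level of 4 members in both multiplexes. *Egr1* was 39.2 and 42.0 CPM there, where the highest other library reached 32.9 and 32.7 CPM. *Junb* was 135.7 and 136.3 CPM against 121 and 119 CPM, and *Ier2* was 404 and 402 CPM against 381 and 351 CPM. *Fosl1* was 4.58 and 4.66 CPM against 2.36 and 3.39 CPM. The paired values are the same library sequenced in the *Ccnc* and the *Cdk8* multiplex, so they do not count as 2 observations. The other members, *Fos*, *Fosb*, *Jun*, *Egr3* and *Jund*, were not above all other libraries in both multiplexes, and *Egr2* was at 0. No group held enough libraries to test a single library against its group.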

How the results depend on the processing

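The lower level of *Egr1* kept its direction under all 11 alternatives in each knockout, between -1.54 and -1.25 on the log2 scale in *Ccnc* KO and between -1.49 and -1.28 in *Cdk8* KO. Its *Cdk8* KO call was lost with the DMSO libraries alone and without WT replicate 1. The fit of the DMSO libraries left 0 members called, beside 5 of 16904 genes. Fewer samples were fitted in each case, and the reason for the loss was not tested. With a library or clone left out, between 1 and 2 members were called in *Ccnc* KO (*Junb* joined without D1) and between 0 and 2 in *Cdk8* KO (*Jun* joined without B9). Among all genes, 2640 of 18418 were called without D1 and 1512 of 18327 without B9.

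For the effect of ATRi in the *Ccnc* multiplex, 1 member was called with DESeq2 (*Ier2*), 1 with genes of at least 1 count kept (*Junb*) and 1 with the clone as a block (*Junb*). These fits called 640 of 29492, 845 of 29492 and 451 of 18577 genes. In the *Cdk8* multiplex 2 members were called with the block, beside 2107 of 18721 genes. Within the *Ccnc* KO clones 1 was called with DESeq2 and 1 with genes of at least 1 count kept, *Junb* in each case. These fits called 196 and 462 of 28488 genes. Within the *Cdk8* KO clones 2 were called with the block, beside 1193 of 17162 genes. The block changed no other call of a member, and pairing rests on the shared cell line. The cause of these changes was not tested. No interaction could be fitted without WT replicate 1, since no WT library with ATRi then remained.

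Among 556 values of single genes under alternatives, 24 changed sign, and each of these was called neither before nor after. With WT replicate 2 under ATRi included, the genotype effect in *Cdk8* KO was -0.18 for *Fosb* and -0.27 for *Fosl1*, the ATRi effect of *Fosl1* was 0.032 and 0.15, the interaction was -0.086 and -0.0013 for *Egr1* and -0.69 for *Fosl1* (*Cdk8*), and *Egr1* differed by -0.0028 between the knockouts. With DMSO alone, *Fosl1* was 0.072 in *Ccnc* KO and the *Egr1* difference -0.048. With the block, *Fosb* was -0.0055 in *Cdk8* KO and the *Fosl1* interaction -0.22. With 1 clone or WT replicate left out, the genotype effect in *Cdk8* KO ran from -0.24 to 0.32 for *Fosb*, from -0.26 to 0.29 for *Fosl1*, from -0.22 to 0.00021 for *Junb* and from -0.88 to 0.044 for *Jund*, and the ATRi effect of *Jund* from -0.51 to 0.20. The interaction ran from -0.025 to 0.12 for *Egr1* (*Ccnc*) and from -0.21 to 0.090 for *Fosl1* (*Cdk8*), and the *Egr1* difference from -0.12 to 0.19.

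The calls of *Nab2*, *Atf3*, *Klf2* and *Rps6ka3* depended more on the libraries. In *Cdk8* KO each held under 6 of 11 alternatives, and was lost with the block, with DMSO alone, and without C8, WT replicate 1 or WT replicate 2. In *Ccnc* KO they held under 10 (*Nab2*), 9 (*Atf3*, *Rps6ka3*) and 7 (*Klf2*) of 11. The direction held throughout. The 5 genes most like *Egr1* were the same with a prior count of 0.5. Low counts limit *Fosb*, *Egr3* and *Jund* in particular.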
